A study of Canis lupus familiaris with 12 samples.

Results

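miR-23a, miR-27a and miR-24 are processed from one primary transcript, and miR-23b, miR-27b and miR-24 from another, so that the same 3 miRNA families are made from 2 paralogous clusters. Their levels were compared between the canine mammary gland tumor line CHMm and its tamoxifen (TAM)-resistant derivative CHMmTAM. The members were the entries named cfa-miR-23a, cfa-miR-23b, cfa-miR-24, cfa-miR-27a and cfa-miR-27b, 5 of the 453 canine miRNAs listed, and all 5 were among the 284 miRNAs that passed the filter of at least 10 counts in total. CHMm was established from a metastatic lesion (pleural effusion) of a female dog with a mammary tumor, and its libraries are labelled Chmm. CHMmTAM, labelled Tamm, was derived from CHMm by rising TAM concentrations over 10 months until it grew in 10 μM TAM, was kept at that dose for 1 month, and was then without drug for 1 week. Both lines were grown in phenol-red-free medium with steroid-depleted serum. There were 3 small RNA libraries of each line, and nothing states that they came from separate cultures. The p-values therefore measure only the spread between libraries. The model fits estimate that spread mostly over all miRNAs or pairs together, and the edgeR test almost wholly so. All resistant libraries represent 1 derived line, and resistance cannot be told apart from other changes over the months of culture.

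A miRNA recognises its target mRNAs mainly through its seed, the bases near its 5′ end. The a and b forms of miR-23 share one seed and so do those of miR-27, and within each pair the mature forms differ by a single base toward the 3′ end. miR-24 has the same mature sequence at both loci, so its reads cannot be assigned to either cluster. These clusters are known for roles in endothelial growth and angiogenesis, in muscle and fat cell differentiation, and in the proliferation and migration of tumor cells, including breast tumor cells. According to RefSeq (assembly UU_Cfam_GSD_1.0), MIR23B, MIR27B and MIR24-1 lie together within the spans of the protein-coding genes C1H9orf3, an aminopeptidase gene known in humans as AOPEP, and FANCC, a Fanconi anemia gene. MIR23A, MIR27A and MIR24-2 lie together on another chromosome, within no other annotated gene, between the coding genes NANOS3 and ZSWIM4. RNA of the host genes was not analysed here.

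The 6 libraries held between 7512659 and 12482211 counts. Levels are given in CPM, the count of a miRNA in each 1000000 counts of its library. A miRNA with 3 counts would be at 0.399 CPM or less, which allows for counting error alone. The members had at least 1106 counts in every library, so that counting error was small for all of them. Replicates differed beyond counting error, and none was treated as a repeated deposit. The 7 epithelial miRNAs examined as cell type markers (the miR-200 family, miR-203 and miR-205) summed to between 24457 and 26853 CPM of all counts in CHMm and between 21958 and 23739 CPM in CHMmTAM. The 4 mesenchymal markers summed to between 38.6 and 48.3 CPM in CHMm and between 23.8 and 28.1 CPM in CHMmTAM. Neither sum overlapped between the lines, both being lower in CHMmTAM. The epithelial miRNAs did not fall as a group. Relative to library totals, miR-205 fell and miR-429 rose, each without overlap. Between the replicate 2 libraries, of similar size, miR-205 dropped from 71130 counts to 42423, whereas miR-429 climbed from 25787 to 31158. There miR-200a and miR-200b also rose, and miR-200c, miR-141 and miR-203 fell. Most mesenchymal counts came from miR-199, which dropped from 420 to 208 in that comparison. The other mesenchymal markers had few counts there and did not fall as a group. miR-214 went from 34 to 24, miR-145 was at 5 in both, and miR-143 rose from 16 to 26. The part of these sums in the values of miR-27a and miR-27b was not tested. The endothelial miRNA miR-126 had at most 3 counts in any library. The 6 blood cell markers summed to between 4.99 and 6.12 CPM in CHMm and between 12.2 and 15.0 CPM in CHMmTAM. The 4 muscle markers summed to between 6.46 and 7.05 CPM in CHMm and between 29.3 and 29.6 CPM in CHMmTAM. Both sums were thus higher in CHMmTAM, without overlap. The sums of the mesenchymal, blood and muscle lists were below the lowest value of each of the 5 miRNAs.

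Of all counts, the 5 miRNAs together took 9.40% ± 0.696 (SD, n = 3) in CHMm and 8.77% ± 0.585 in CHMmTAM, and the lines overlapped. The difference was -0.63 percentage points, from -1.01 to -0.31 with each library left out in turn. Of the counts without miR-21, which itself took from 50.2% to 51.7% in CHMm and from 53.7% to 54.5% in CHMmTAM, the 5 miRNAs took 19.1% ± 1.14 in CHMm and 19.1% ± 1.15 in CHMmTAM. Only small changes between the lines were measured. miR-27a fell to 0.829-fold of its CHMm level. The other 4 miRNAs did not pass the test in the main fit, though miR-27b was just short and passed under several alternatives. In the main fit 0 members were called higher in CHMmTAM, where 25.4% of all 284 tested miRNAs were. None reached a log2 fold change beyond 1 in either direction, which 11.3% of all tested miRNAs did at FDR below 0.05. The paralogs were not shown to differ from each other. miR-24 rose relative to miR-27a and to miR-27b, although the call for miR-27b was lost without some single libraries. Of the 10 pairs among the 5 miRNAs, 3 differed at FDR below 0.05, where 64.7% of all 19110 pairs did. Values below are CPM scaled with the TMM factors of edgeR, unless a ratio of counts is named.

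**Figure D1:**
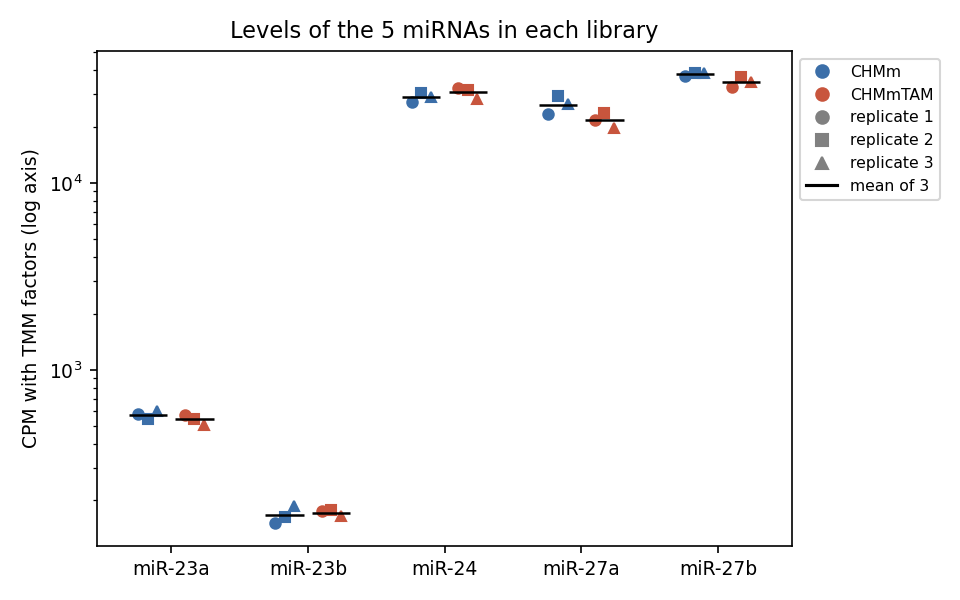
Levels of the 5 miRNAs in each library, as CPM with TMM factors on a log axis. Colours mark the lines, shapes the replicate numbers, and black lines the means of 3 libraries. miR-24, miR-27a and miR-27b lie between 19704 and 38576 CPM, and miR-23a and miR-23b between 151 and 605 CPM.

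miR-27b, from the intronic cluster, was the most abundant member, ranking 3 among the 284 tested miRNAs in both lines. It had 37501, 38576 and 38475 CPM in the CHMm libraries and 32445, 37001 and 34505 CPM in the CHMmTAM libraries, in the order of the replicate numbers. All 3 CHMmTAM values lay below all 3 CHMm values, the nearest ones being 37001 and 37501 CPM. Its mean in CHMm was 38184 ± 593 CPM (SD, n = 3), and that in CHMmTAM was 34650 ± 2281 CPM. The log2 fold change was -0.14 (standard error 0.06, 95% interval -0.26 to -0.02), and the quasi-likelihood test of edgeR gave FDR = 0.0551 (Benjamini-Hochberg adjustment over the 284 miRNAs), just short of the threshold of 0.05. Among all tested miRNAs, 51.8% had no overlap between the lines. The call depended on the scaling and on single libraries. Under RLE factors the log2 fold change was -0.20 (FDR = 0.0115 in edgeR), with the default filter of edgeR it was -0.11 (FDR = 0.139), and without CHMmTAM replicate 1 it was -0.072 (FDR = 0.46 in edgeR).

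miR-27a had 23259, 29071 and 26307 CPM in the CHMm libraries and 21725, 23739 and 19704 CPM in the CHMmTAM libraries. Replicate 1 of CHMm was the lowest of its line and lay below replicate 2 of CHMmTAM, so that the lines overlapped. The mean fell from 26212 ± 2907 CPM (SD, n = 3) to 21723 ± 2017 CPM. The log2 fold change was -0.27 (standard error 0.06, 95% interval -0.39 to -0.15), and the same edgeR test gave FDR = 5.96e-05. miR-27a was the only member called at FDR below 0.05 in this fit, where 44% of all tested miRNAs were called and 18.7% were called lower in CHMmTAM. Without CHMm replicate 2, the highest of the 6 libraries, the log2 fold change was -0.18 and the call was lost (FDR = 0.0838 in edgeR). Under upper-quartile normalization it was -0.52. The exact two-sided permutation test over the 6 libraries gave p = 0.2 for miR-27a and p = 0.1 for miR-27b, where 3 against 3 cannot go below 0.1. The edgeR standard errors of miR-27a and miR-27b were nearly equal, at 0.0626 and 0.0622, though their CHMm SDs were 2907 and 593 CPM. That test takes its estimate of spread almost wholly from all miRNAs together, so its FDR for miR-27a does not rest on the spread of miR-27a itself.

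miR-24, the product of both clusters, had 27177, 30110 and 28782 CPM in CHMm and 32176, 31542 and 28210 CPM in CHMmTAM. The highest values were those of replicates 1 and 2 of CHMmTAM, and replicate 3 fell within the range of CHMm. The CHMm mean was 28690 ± 1469 CPM (SD, n = 3), the CHMmTAM mean was 30643 ± 2131 CPM, and miR-24 ranked 5 in both lines. The log2 fold change was 0.10 (95% interval -0.03 to 0.22, FDR = 0.219 in edgeR). It turned to -0.15 under upper-quartile normalization (FDR = 0.0707), which moved the median of all tested miRNAs from 0.06 to -0.18. Without CHMmTAM replicate 3 it was 0.17 and passed the threshold (FDR = 0.0327 in edgeR).

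The miR-23 paralogs were much less abundant. miR-23a had 577, 545 and 605 CPM in CHMm and 576, 549 and 505 CPM in CHMmTAM, and only replicate 3 of CHMmTAM lay below the range of CHMm. Its log2 fold change was -0.08 (95% interval -0.22 to 0.06, FDR = 0.355 in edgeR). miR-23b had 151, 163 and 188 CPM in CHMm and 175, 177 and 165 CPM in CHMmTAM. All 3 resistant values lay within the range of CHMm, whose own libraries were spread more widely. Its log2 fold change was 0.04 (95% interval -0.11 to 0.19, FDR = 0.72 in edgeR), and its sign turned under RLE factors, under upper-quartile normalization and in the DESeq2 test. Under upper-quartile normalization both passed the threshold, miR-23a at -0.33 and miR-23b at -0.20. The intervals correspond to a fold between 0.858 and 1.04 for miR-23a and between 0.925 and 1.14 for miR-23b. Over the 5 miRNAs the median absolute log2 fold change was 0.10, and over all tested miRNAs it was 0.41.

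The order of the levels was miR-27b, miR-24, miR-27a, miR-23a and miR-23b in each of the 6 libraries, although the distances between the first 3 varied. Levels of different miRNAs also depend on how well each sequence is ligated and assigned, which was not measured here. miR-27b had between 1.28 and 1.38 counts per count of miR-24 in CHMm and between 1.01 and 1.22 in CHMmTAM. At the lower end, in CHMmTAM replicate 1, the 2 were nearly level, with 414438 counts of miR-27b and 411004 of miR-24. miR-24 and miR-27a were close to each other in CHMm, with 1.04 to 1.17 counts of miR-24 per count of miR-27a, and lay further apart in CHMmTAM, with 1.33 to 1.48. In CPM the CHMm values of miR-24 and miR-27a overlapped between libraries, and those of CHMmTAM did not.

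The a and b paralogs held opposite places in the 2 families. For miR-23 the a form was the more abundant, with 79.2%, 76.9% and 76.3% of the summed miR-23a and miR-23b counts in CHMm and 76.7%, 75.6% and 75.4% in CHMmTAM. For miR-27 the b form was the more abundant, and miR-27a held 38.3%, 43.0% and 40.6% of the summed counts in CHMm and 40.1%, 39.1% and 36.3% in CHMmTAM. In both families the order of the paralogs was the same in 6 of 6 libraries. The members of one cluster therefore had very unequal counts. miR-27a had between 37.7 and 53.3 counts per count of miR-23a, and miR-27b between 186 and 248 per count of miR-23b.

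**Figure D2:**
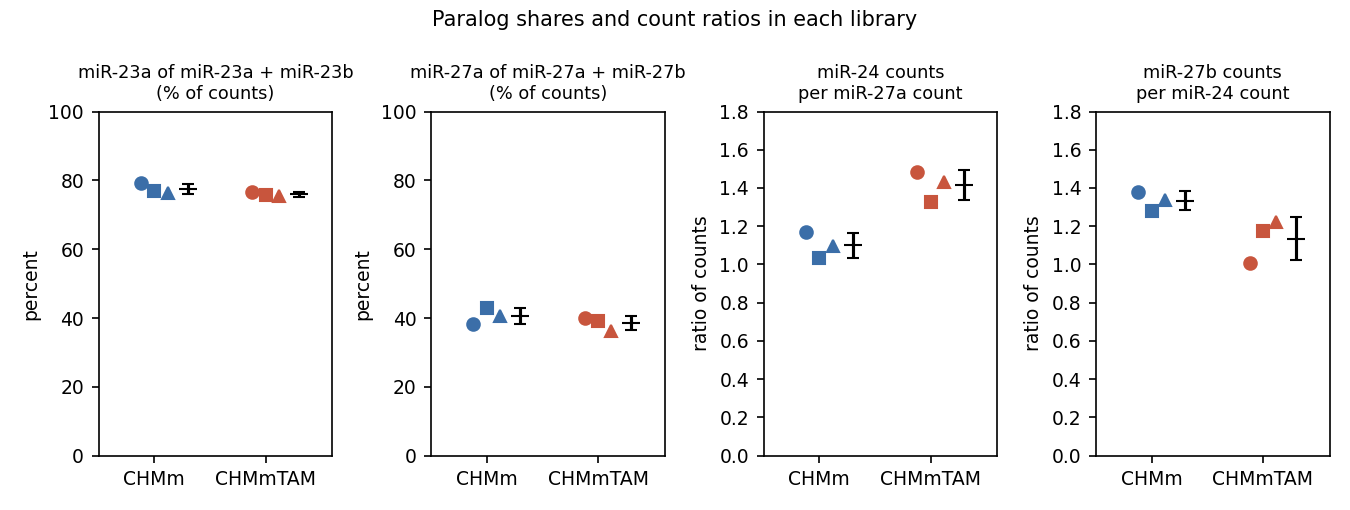
Shares of the a paralogs (percent of the counts of both paralogs) and ratios of counts with miR-24, in each library of CHMm and CHMmTAM. Shapes mark the replicate numbers, and the black marks show the mean and SD of 3 libraries. The shares overlap between the lines, and both ratios with miR-24 do not. How often other pairs of miRNAs had no overlap was not counted.

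Whether the a and b paralogs changed differently was tested on the ratio of their counts within each library, which does not depend on library scaling. The log2 ratio of miR-23a to miR-23b was 1.79 ± 0.13 (SD, n = 3) in CHMm and 1.66 ± 0.06 in CHMmTAM. The difference was -0.13 (standard error 0.09, 95% interval -0.32 to 0.06), with FDR = 0.23 from limma over all 19110 pairs of the 196 miRNAs with at least 10 counts in every library. The log2 ratio of miR-27a to miR-27b was -0.55 ± 0.14 in CHMm and -0.68 ± 0.12 in CHMmTAM. Its difference was also -0.13 (standard error 0.09, 95% interval -0.31 to 0.06, FDR = 0.223 from the same limma fit). Neither difference passed the threshold, and the shares overlapped between the lines in both families. The miR-23 difference was -0.057 without CHMm replicate 1. The miR-27 difference was -0.057 without CHMm replicate 2 and -0.061 without CHMmTAM replicate 3. Exact two-sided permutation tests of the a shares gave p = 0.2 for miR-23 and p = 0.4 for miR-27, where 3 against 3 cannot go below 0.1, so these could not have passed 0.05. The edgeR test for unequal changes within 27 paralog families gave FDR = 0.345 for both.

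Other paralogs in the same table often moved apart. Among the 47 pairs of miRNAs with the same number and a different letter, 44.7% differed at FDR below 0.05 in the limma fit, namely 21 of the 45 pairs outside the miR-23 and miR-27 families and 0 of these 2, which had unadjusted p of 0.178 and 0.172. The absolute difference of the other pairs had a median of 0.28. The widest were miR-34a against miR-34c at -1.81, miR-34a against miR-34b at -1.71, and miR-146a against miR-146b at 1.36. Ordered by size, 29 pairs were wider than both miR-23 and miR-27, and 16 were narrower than both.

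**Figure D3:**
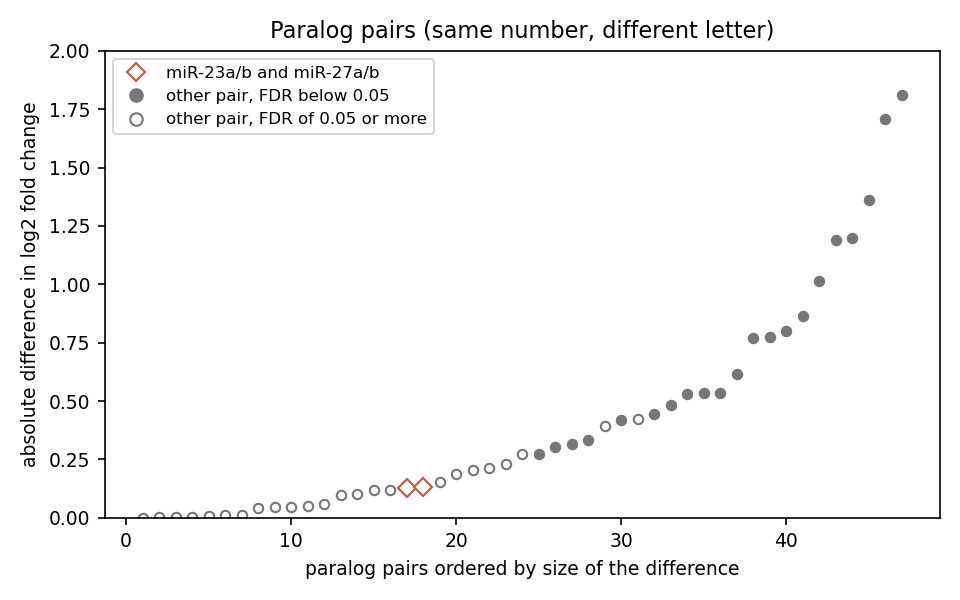
Absolute difference in log2 fold change (CHMmTAM over CHMm) between paralogs, for 47 pairs ordered by size. Diamonds mark miR-23a against miR-23b and miR-27a against miR-27b, both at 0.13, and filled circles mark other pairs at FDR below 0.05.

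Of the 10 pairs among the 5 miRNAs, 3 differed in their change at FDR below 0.05 in the limma fit, where 64.7% of all 19110 pairs did. miR-24 rose relative to miR-27a. Their log2 ratio was 0.13 ± 0.09 (SD, n = 3) in CHMm and 0.50 ± 0.08 in CHMmTAM, a difference of 0.36 (standard error 0.09, 95% interval 0.19 to 0.54, FDR = 0.00048 from limma), and it was higher in 3 of 3 resistant libraries. This difference passed the threshold in every alternative run for it, with values from 0.32 to 0.41. miR-24 also rose relative to miR-27b, by 0.24 (standard error 0.09, 95% interval 0.05 to 0.42, FDR = 0.0221 from limma), with a log2 ratio of -0.41 ± 0.05 in CHMm and -0.18 ± 0.15 in CHMmTAM. That call was lost without CHMm replicate 1 (0.21, FDR = 0.0699), without CHMm replicate 3 (0.23, FDR = 0.0733), without CHMmTAM replicate 1 (0.15, FDR = 0.146), all from limma, and without the trend in the variance. Against the sum of miR-27a and miR-27b, miR-24 had 0.447, 0.445 and 0.444 counts per count in CHMm and 0.594, 0.519 and 0.520 in CHMmTAM. The 3 parental libraries were nearly equal, and the resistant libraries all lay higher, with replicate 1 the farthest. How many of all 19110 pairs had no overlap between the lines was not counted. The log2 ratio of miR-23a to miR-24 did not overlap between the lines either, though that pair was not called.

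The third pair that differed was miR-23b against miR-27a, which belong to different clusters. Their difference was 0.32 (standard error 0.10, 95% interval 0.11 to 0.52, FDR = 0.00628 from limma). It did not pass without CHMm replicate 2 (0.22, FDR = 0.088 in limma) or without the trend in the variance. Within each cluster, the change of miR-23 was not shown to differ from that of miR-27. miR-23a minus miR-27a was 0.18 (95% interval -0.01 to 0.38, FDR = 0.0921 from limma) and miR-23b minus miR-27b was 0.19 (95% interval -0.01 to 0.39, FDR = 0.0899 from limma). The first passed without CHMm replicate 1 (0.27, FDR = 0.0268 in limma), and the second without CHMm replicate 3 (0.27, FDR = 0.0403 in limma). miR-23a minus miR-24 was -0.18 (95% interval -0.36 to -0.00085, FDR = 0.0726 from limma). It passed without CHMm replicate 2 (-0.25, FDR = 0.0289 in limma).

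**Figure D4:**
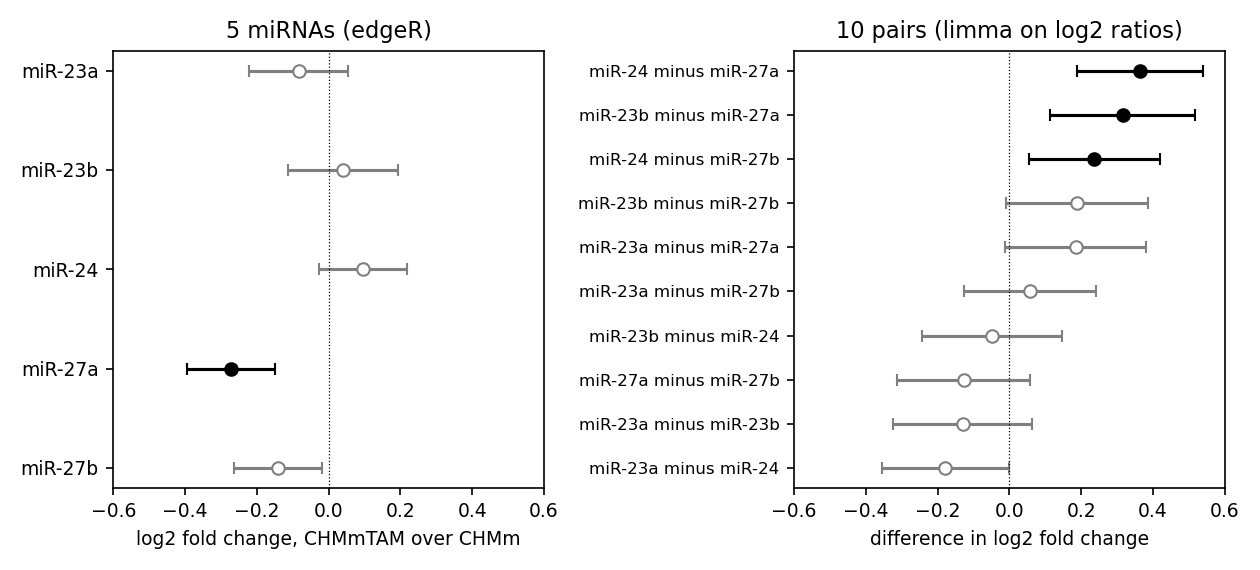
Left, log2 fold changes of the 5 miRNAs (CHMmTAM over CHMm, edgeR). Right, differences in log2 fold change between the members of the 10 pairs (limma on log2 ratios of counts). Bars are 95% intervals and filled points have FDR below 0.05. These are miR-27a on the left, and on the right miR-24 against miR-27a, miR-23b against miR-27a, and miR-24 against miR-27b.

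The profiles over the 6 libraries were also compared with 112 other miRNAs of at least 50 CPM on average, by the root mean square (RMS) difference of log2 CPM after centring each miRNA on its mean. The nearest to miR-27b were miR-1306 at 0.0163, miR-29b at 0.0287 and miR-339 at 0.0461. For miR-27a the nearest were miR-196b at 0.0861, miR-141 at 0.0940 and miR-135b at 0.106, and the distance between miR-27a and miR-27b was 0.124. miR-24 was nearest to miR-28 at 0.0684, miR-200b at 0.0692 and miR-378 at 0.0695. miR-378 was also the nearest to miR-23b, at 0.0739, followed by miR-652 at 0.0813 and miR-503 at 0.0820. For miR-23a the nearest were miR-193a at 0.0551, miR-1343 at 0.0587 and miR-125b at 0.0596. Each of the 4 paralogs thus had other miRNAs nearer to it than its own paralog, miR-23a and miR-23b being 0.104 apart. This sets the nearest of 112 candidates against the paralog alone, so it cannot show whether the paralogs were unlike. Where the paralog would rank among the 112 candidates was not determined, and other paralog pairs were not compared in this way. Profiles with little change between the lines are set mainly by the spread within a line, so these distances are a description only.

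miR-128 is known to have a seed that overlaps that of miR-27 when shifted by a base, and it was named from this background after its values were seen. It had 1281, 1175 and 1184 CPM in CHMm and 730, 648 and 623 CPM in CHMmTAM, with no overlap. It fell to 0.550-fold, or by -0.86 in log2 (standard error 0.07, edgeR FDR = 1.58e-32), while miR-27a was at -0.27 and miR-27b at -0.14. Of all tested miRNAs, 44% were called in that fit and 51.8% had no overlap. Whether miRNAs with related seeds changed together was not tested.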

How the data were processed

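Small RNA was sequenced from 3 CHMm and 3 CHMmTAM libraries, assigned by their titles. The RNA-seq libraries were not analysed here. The authors deposited raw read counts per mature miRNA, without normalization. The submitters' processing notes name HISAT2 2.0.4, BWA and CanFam3.1, with no role. The database, trimming and the assignment of reads that fit both paralogs are not given in the sources used here. These steps could move counts between miR-23a and miR-23b or miR-27a and miR-27b, which was not tested.

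The members and lists were chosen with earlier results of these data known. edgeR 4.0.16 in R 4.3.3 was used with TMM factors, a total of at least 10 counts, the quasi-likelihood test and Benjamini-Hochberg adjustment over 284 miRNAs, called at FDR below 0.05. Pairs were fitted with limma 3.58.1 (eBayes with trend) on log2 ratios after adding 0.5 to the counts, over all 19110 pairs, which share miRNAs and are not independent. DESeq2 1.42.0 was an alternative. Both fits were tested on simulated data in which all miRNAs had the same spread beyond counting error. That setting does not test calls where the spread differs between miRNAs. Named miRNAs were the members, the 3 nearest profiles of each, the 3 widest other paralog pairs, and miR-128, which was added after its values were seen. The part of the rule based on seed sequences could not be applied without sequences, and miR-3074 was looked for by name without a match.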

Additional observations from a re-analysis of the deposited data

How the results depend on the processing

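Of 197 values of the 5 miRNAs and their 10 pairs under the alternatives, 167 kept both sign and call, 8 lost a call, 14 gained one and 8 changed sign. The alternatives include stricter thresholds on the main values, under which an uncalled miRNA could not change. A value that changed sign was counted only as such, even where it passed the threshold, as miR-23b did under upper-quartile normalization. Neither a-against-b difference was called in any of its 11 alternatives. Upper-quartile normalization gave log2 fold changes of -0.33 (miR-23a), -0.20 (miR-23b), -0.15 (miR-24), -0.52 (miR-27a) and -0.38 (miR-27b), with 100 miRNAs called lower and 41 higher, against 53 and 72, and a median of all tested miRNAs of -0.18, against 0.06. Relative to the median of each fit, miR-27a lay between -0.43 and -0.26 and miR-27b between -0.28 and -0.13. miR-23b reversed to -0.020 under RLE, -0.019 with TMM without the 10 most abundant miRNAs, and -0.020 in DESeq2. miR-27b gained the call at -0.20 in these 3, at -0.14 with library totals only and in limma-voom, and at -0.15 with TMM without miR-21 and with at least 10 counts in every library. It also passed under upper-quartile normalization and without CHMmTAM replicate 2 (-0.19, FDR = 0.0108 in edgeR). With the fold-change threshold added, 32 miRNAs were called, 17 higher and 15 lower, and miR-27a, at -0.27, was not. Without the variance trend, the differences of 0.32 (miR-23b minus miR-27a) and 0.24 (miR-24 minus miR-27b) lost the call, at FDRs of 0.0548 and 0.0992 from limma.

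Leaving out each library in turn gave log2 fold changes from -0.11 to -0.016 for miR-23a, -0.025 to 0.13 for miR-23b, 0.057 to 0.17 for miR-24, -0.35 to -0.18 for miR-27a and -0.19 to -0.072 for miR-27b. The differences ranged from -0.18 to -0.06 for miR-23a minus miR-23b, -0.20 to -0.06 for miR-27a minus miR-27b, -0.25 to -0.14 for miR-23a minus miR-24, -0.10 to 0.035 for miR-23b minus miR-24, 0.068 to 0.27 for miR-23a minus miR-27a, 0.22 to 0.40 for miR-23b minus miR-27a, 0.32 to 0.41 for miR-24 minus miR-27a, -0.031 to 0.11 for miR-23a minus miR-27b, 0.13 to 0.27 for miR-23b minus miR-27b and 0.15 to 0.29 for miR-24 minus miR-27b. Apart from the scalings, the cause of these changes was not tested. With the replicate number as a block, miR-27a was at -0.27, 52 miRNAs were called lower and 74 higher, and no call of the 5 miRNAs or their pairs changed. In the check of pairing, equal numbers correlated across the lines at 0.06, 0.46 and -0.31 for replicates 1, 2 and 3 (deviations from the line's mean over 117 miRNAs), and 2 of the 6 libraries correlated best with their own number. No source states that the numbers pair the libraries.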
